A study of Mus musculus with 4 samples.

Results

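Keratins are the intermediate filament proteins of epithelial cells, and the mouse genome holds them in a pair of gene families, the acidic type I and the neutral to basic type II keratins. A filament subunit always joins 1 type I with 1 type II chain, so that genes of the families are used in pairs that mark the kind of epithelium. In the mammary gland the luminal cells that line ducts and alveoli make the simple epithelial pair Krt8 and Krt18, joined by Krt7 and Krt19, while the basal, myoepithelial layer makes Krt5 and Krt14. The members described here were chosen by name alone, as every gene row whose symbol is Krt followed by a number and at most 1 letter, which leaves out the keratin-associated proteins (Krtap). This gave 51 keratin genes of 23746 rows, 28 of type I and 23 of type II.

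Their RNA was measured in 4 primary mammary tumors of female mice. Tumors 26043 and 26044 came from WapCre;Rank;Brca1;p53 females, called triple-mutant here, and tumors 26048 and 26050 from WapCre;Brca1;p53 females, called double-mutant. In all 4 tumors Brca1 and p53 were deleted from floxed alleles by Cre under the promoter of whey acidic protein, a milk protein gene, and the genotypes differed in whether Rank, the receptor of RANK ligand, was deleted as well. The comparison therefore asks how keratin RNA differed between Brca1- and p53-deficient tumors that formed without and with Rank in the Cre-targeted epithelium. The tumors were profiled whole, so that fewer cells of a type and less RNA per cell cannot be told apart. The age of the mice, the grade of each sequenced tumor and which of them came from littermates are not given in the sources used here. The study describes females of the genotypes as littermates. It found only intermediate-grade tumors in triple-mutant females, and both intermediate-grade and high-grade ones in double-mutant females. Protein staining in the study showed Krt5 in all intermediate-grade tumors of either genotype. In high-grade double-mutant tumors Krt5 protein was markedly lower, and p63, the product of Trp63 and high in triple-mutant tumors, was largely lost. A difference of grade therefore cannot be told apart from one of genotype here. Values are FPKM, fragments per kilobase of transcript scaled to the mapped fragments of the library, which correct for transcript length and allow genes to be compared with each other.

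Tnfrsf11a, the gene of Rank, had 2.07 FPKM in tumor 26043 and 0.962 FPKM in tumor 26044, both triple-mutant, against 10.6 and 11.9 FPKM in the double-mutant tumors 26048 and 26050. The gene value was lower in both tumors labelled as lacking Rank, without reaching 0, by a log2 fold change of -2.32 (SE 0.37) that did not pass the limma test after Benjamini-Hochberg adjustment (adjusted p = 0.225). Tumor 26044 stood apart from the other 3 in its non-keratin markers. The epithelial adhesion gene Epcam had 25.7 FPKM there against 347, 516 and 390 FPKM in tumors 26043, 26048 and 26050. The smooth muscle actin gene Acta2, made by myoepithelial cells and by stromal cells, had 898 FPKM in tumor 26044 and 31.8 to 64.8 FPKM in the others. Tumor 26048 held the most fat cell RNA, with a summed level of the 4 adipocyte markers of 1390 FPKM against 7.58 to 261 FPKM elsewhere. Other markers differed between the genotypes in sum, though none passed the adjusted limma test. The 7 fibroblast markers summed to 205 and 123 FPKM in the triple-mutant and 899 and 433 FPKM in the double-mutant tumors. Of these, 4 were lower and 1 higher in both triple-mutant tumors, against 22.9% and 21.3% of all genes tested. The 6 leukocyte markers summed to 35.5 and 33.3 FPKM against 59.3 and 71.6 FPKM. All 4 that were tested were lower in both, beside the same 22.9% of all genes. The smallest limma adjusted p was 0.231 among the fibroblast and 0.402 among the leukocyte markers. The part of these cells in the keratin values was not tested.

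Of the 51 keratins, 16 reached 1 FPKM in at least 2 tumors and were tested together with all other genes at that level, 12752 in all. Both triple-mutant tumors lay above both double-mutant tumors in 8 of the 16, namely Krt5, Krt14, Krt15, Krt17, Krt6a, Krt19, Krt42 and Krt79, against 21.3% of all genes tested. Both lay below in 3 of the 16, Krt8, Krt18 and Krt27, against 22.9% of all genes. All 11 of these differed by at least 1 unit on the log2(FPKM + 1) scale, as 7.30% of all genes did upward and 4.65% downward. Krt6a, Krt42 and Krt27 reached the filter only in the genotype where they were higher, so their separation was fixed by the filter, and these counts describe the 16 and are no support for a change of the family. None of the 16 passed the limma test on log2(FPKM + 1) at an adjusted p of 0.05, which also called 0% of the 12752 genes. At an unadjusted limma p of 0.05 the count was 6 of 16 keratins, 5 of them higher in the triple-mutant tumors, against 9.82% and 5.91% of all genes. The smallest two-sided p that exact permutation allows for 1 gene in 2 against 2 tumors is 0.333. No keratin difference given here is therefore statistically significant, and no p was computed for a sum or ratio over keratins.

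**Figure D1:**
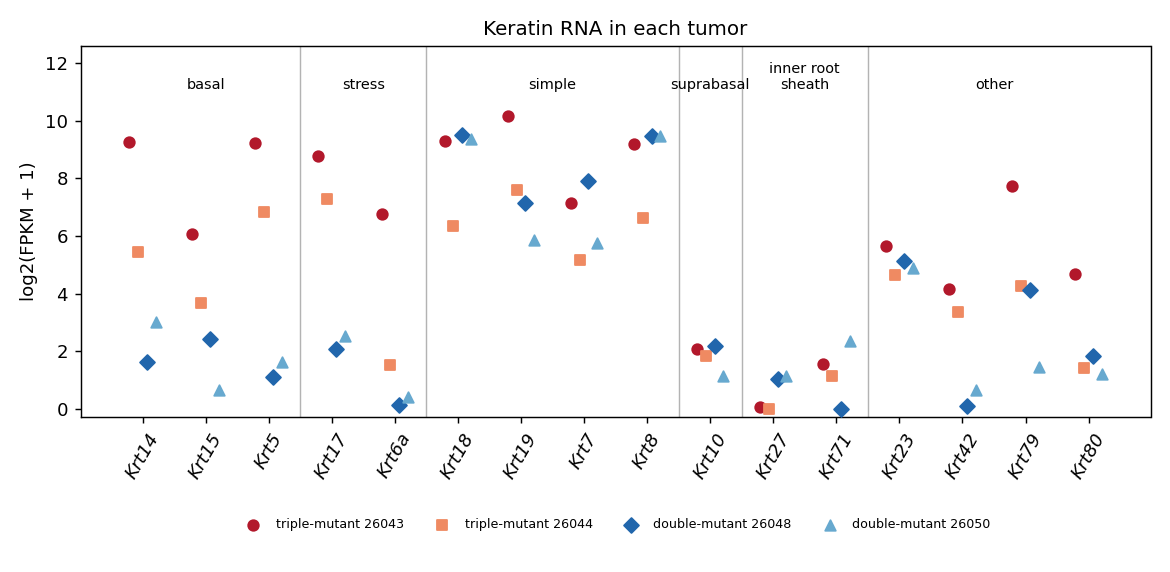
FPKM of the 16 keratins that reached 1 FPKM in at least 2 tumors, on a log2(FPKM + 1) axis, with 1 point per tumor and the genes grouped by the epithelium they are known from. In Krt5 and Krt17 both triple-mutant points sit far above the double-mutant points, whereas in Krt8 and Krt18 tumor 26043 sits beside the double-mutant tumors and tumor 26044 alone sits low.

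All 3 basal keratins were higher in both triple-mutant tumors, and Krt5 had the highest log2 fold change of the 16 tested keratins. Krt5 (chr15:101707070-101712891, mm10, as for all positions), the type II keratin of the basal layer, had 596 FPKM in tumor 26043 and 114 FPKM in tumor 26044, against 1.15 and 2.06 FPKM in the double-mutant tumors 26048 and 26050. Values of other genes are given in this order of tumors, the triple-mutant pair first, unless a sentence names them. The means were 355 ± 341 and 1.60 ± 0.647 FPKM (SD, n = 2 each), a log2 fold change of 6.68 (SE 0.85, limma adjusted p = 0.179). Both triple-mutant tumors were far above both others, although they differed 5.23-fold from each other. Its type I partner Krt14 (chr11:100203162-100207510) had 611 and 42.5 FPKM against 2.08 and 6.99 FPKM. Here the triple-mutant tumors differed 14.4-fold among themselves, and the log2 fold change of 5.04 had a larger error (SE 1.37, limma adjusted p = 0.451). Krt15, a type I keratin of basal cells and of the hair follicle bulge, had 66.0 and 11.8 FPKM against 4.37 and 0.577 FPKM. Its genotypes did not overlap, yet the lower triple-mutant and the higher double-mutant value lay closest of the 3 basal genes, with a log2 fold change of 3.33 (SE 1.03, limma adjusted p = 0.480). Leaving out tumor 26043 lowered these 3 log2 fold changes to 5.49, 3.13 and 2.14, and all 3 stayed positive whichever tumor was left out.

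Of the markers of basal cells that are not keratins, Trp63, the gene of the basal transcription factor p63, had 28.5 and 48.1 FPKM in the triple-mutant and 1.24 and 0.670 FPKM in the double-mutant tumors. Oxtr, the oxytocin receptor gene of myoepithelial cells, had 12.0 and 19.6 FPKM against 1.25 and 0.703 FPKM. In both genes, as in Krt5, the genotypes lay far apart. The contractile marker Cnn1 had 36.2 FPKM in tumor 26044 and 0.372 to 2.36 FPKM in the other 3, and Acta2 followed the same order, so that tumor 26043, which held the most Krt5 and Krt14, had these 2 contractile markers near the level of the double-mutant tumors. Not all markers of the list separated the genotypes. Of the 5 tested, 4 were higher and 0 lower in both triple-mutant tumors, against 21.3% and 22.9% of all genes tested. The 1 that overlapped was Mylk, with 3.06 and 8.01 FPKM against 3.65 and 1.67 FPKM. Myh11, below the filter, overlapped too, with 0.492 and 1.87 FPKM against 0.655 and 0.244 FPKM. The summed level of the 6 basal and myoepithelial markers was 111 and 1012 FPKM in the triple-mutant and 67.6 and 35.5 FPKM in the double-mutant tumors. The part of basal or myoepithelial cell number in the keratin values was not tested.

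The simple epithelial keratins were the most abundant ones of the double-mutant tumors. Krt8 (chr15:101996711-102004342), type II, had 708 and 701 FPKM there and 579 and 98.3 FPKM in the triple-mutant tumors. Krt18 (chr15:102028216-102032026), its type I partner, had 729 and 656 FPKM in the double-mutant and 624 and 80.3 FPKM in the triple-mutant tumors. In both genes tumor 26043 was just below the double-mutant tumors and tumor 26044 far below. The log2 fold changes of -1.56 for Krt8 (SE 0.88, limma adjusted p = 0.604) and -1.62 for Krt18 (SE 1.01, limma adjusted p = 0.632) shrank to -0.28 and -0.15 without tumor 26044. Epcam was also low in that tumor, and the ratio of Krt8 to Epcam was 1.67 and 3.83 in the triple-mutant and 1.37 and 1.80 in the double-mutant tumors. Relative to this epithelial marker, the Krt8 value of tumor 26043 lay between the double-mutant values and that of tumor 26044 above them. The ratio of Krt18 to Epcam was 1.80 and 3.13 in the triple-mutant and 1.41 and 1.68 in the double-mutant tumors. Relative to Epcam, Krt18 was thus higher in both triple-mutant tumors. These ratios rest on Epcam alone. The other pan-epithelial marker read, the E-cadherin gene Cdh1, ranked the tumors differently, and ratios to it were not computed. It had 100 and 10.4 FPKM in the triple-mutant and 122 and 69.7 FPKM in the double-mutant tumors. The summed level of the 8 luminal markers that are not keratins was 1773 and 175 FPKM in the triple-mutant and 636 and 892 FPKM in the double-mutant tumors, lowest in tumor 26044 and made up mostly of the claudin gene Cldn3 in tumor 26043 (1237 FPKM). Not all luminal markers followed it. Of the 8, 2 were higher and 1 lower in both triple-mutant tumors, against 21.3% and 22.9% of all genes tested, and 5 overlapped. The 2 higher were Foxa1 and Esr1. Foxa1, a pioneer factor of hormone-sensing luminal cells, had 40.9 and 8.44 FPKM against 3.62 and 0.341 FPKM. Esr1, the estrogen receptor gene, had 3.66 and 1.39 FPKM against 0.325 and 0.354 FPKM. Elf5 was lower, with 43.6 and 4.84 FPKM against 66.0 and 103 FPKM. The part of epithelial cell number in these values was not tested.

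The other members of the simple group did not follow Krt8 and Krt18. Krt19, a type I keratin of ductal epithelia that has no tail domain, was the most abundant keratin of both triple-mutant tumors with 1154 and 194 FPKM, against 139 and 56.7 FPKM in the double-mutant tumors. Tumors 26044 and 26048 lay close to each other, so that the genotypes separated by little while the log2 fold change was 2.40 (SE 0.98, limma adjusted p = 0.531). Divided by Epcam, Krt19 was 3.33 and 7.54 in the triple-mutant and 0.270 and 0.145 in the double-mutant tumors. Krt7, a type II keratin of simple and ductal epithelia, had 140 and 34.8 FPKM against 241 and 52.6 FPKM and overlapped between genotypes (log2 fold change -0.68, SE 1.0, limma adjusted p = 0.833). The sign of the Krt7 difference turned positive when tumor 26044 (0.31) or tumor 26048 (0.40) was left out. Krt20, known from gut and bladder, stayed under 0.1 FPKM in every tumor, its highest value being 0.0935 FPKM.

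Read together as pairs, Krt5 and Krt14 summed to 1207 and 156 FPKM in the triple-mutant tumors, and Krt8 and Krt18 to 1202 and 179 FPKM. The basal sum was thus 1.0 and 0.876 times the simple sum in tumors 26043 and 26044, which differ severalfold in keratin level but not in this ratio. In the double-mutant tumors the basal sum was 0.00224 and 0.00667 times the simple sum. On the log2 scale the ratio averaged -0.09 ± 0.14 in the triple-mutant and -8.01 ± 1.11 in the double-mutant tumors (SD, n = 2 each), a difference of 7.92. This ratio is taken within a tumor and does not depend on how a library was scaled. With any 1 tumor left out the difference stayed between 7.14 and 8.71, and with all members of the basal and simple groups in place of the 4 genes it was 6.45.

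**Figure D2:**
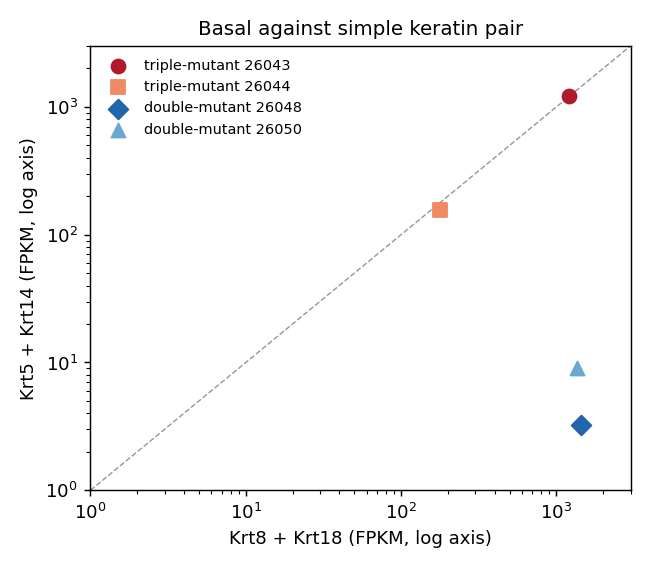
Summed FPKM of the basal pair Krt5 and Krt14 (vertical log axis) against that of the simple pair Krt8 and Krt18 (horizontal log axis), 1 point per tumor, with a dashed line where both sums are equal. Both triple-mutant tumors lie near the line, at 1207 against 1202 FPKM and 156 against 179 FPKM, and both double-mutant tumors lie far below it, at 3.22 and 9.05 FPKM of the basal pair.

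Krt17 had the smallest p of the 16 keratins. It is a type I keratin of skin appendages that is induced on wounding, and lies at chr11:100256217-100260989. It had 435 and 155 FPKM in the triple-mutant and 3.24 and 4.77 FPKM in the double-mutant tumors. The tumors of a genotype were closer to each other than for any of the 3 basal keratins, 2.81-fold apart in the triple-mutant and 1.47-fold in the double-mutant pair. The log2 fold change was 5.72 (SE 0.57, limma adjusted p = 0.143), and Krt17 stood at rank 23 of the 12752 genes by p. It stayed between 4.98 and 6.46 with any 1 tumor left out.

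Krt6a, Krt6b, Krt16 and Krt75, grouped here with Krt17, were each highest in tumor 26043. Krt6a, a type II keratin of activated epidermis and the companion layer of the hair follicle, had 109 FPKM in tumor 26043, 1.88 FPKM in tumor 26044 and 0.0987 and 0.312 FPKM in the double-mutant tumors (log2 fold change 3.89, SE 1.77, limma adjusted p = 0.548). Its near copy Krt6b had 12.9 FPKM in tumor 26043 and 0.172 to 0.214 FPKM in the other 3, and Krt16, the type I partner of the Krt6 proteins, 47.5 FPKM against 0.210 to 0.471 FPKM. Krt75, of the companion layer, had 1.71 and 0.325 FPKM in the triple-mutant tumors and was listed at 0 in both double-mutant ones. Krt6b, Krt16 and Krt75 reached 1 FPKM in tumor 26043 only and so were not tested. Epidermal differentiation markers were low beside them, with a summed level of 11.2 FPKM in tumor 26043 and 0.775 to 2.30 FPKM in the other tumors for the 5 genes found. Their part in the Krt6a and Krt16 values of tumor 26043 was not tested.

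Reads of Krt6a and Krt6b are hard to tell apart. Of all stretches of 50 bases in the Krt6a transcript, the length of the reads used here, 49.5% occur unchanged in another gene and 61.8% lie within 2 mismatches of another keratin, and for Krt6b the shares were 50.1% and 64.0%. In the first coding exon 266 of 458 such stretches are identical between the genes. Below is the stretch of that exon where they differ most, coding bases 374 to 423 on the minus strand of chromosome 15, with the 5 bases that differ in capitals. Krt6a lies there at chr15:101693826-101693875 and Krt6b at chr15:101679801-101679850.
Krt6a: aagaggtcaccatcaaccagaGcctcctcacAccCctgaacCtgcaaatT
Krt6b: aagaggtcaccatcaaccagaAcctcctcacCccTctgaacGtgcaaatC
A read from this stretch carries up to 5 distinguishing bases, and one from an identical stretch carries none. How Cufflinks divided the shared reads is not given in the sources used here, so the ratio of Krt6a to Krt6b in tumor 26043, 8.44, is uncertain.

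Sharing was smaller than in the Krt6 genes for the other keratins that were higher in both triple-mutant tumors. Unchanged stretches made up 8.52% of Krt5, shared with the Krt6 genes and the unnamed genes Gm5414 and Gm5478, 14.4% of Krt14, 3.99% of Krt17, 0.268% of Krt42, 0.666% of Krt15 and 0% of Krt19 and Krt79. Krt14 is the most exposed of them, since 48.5% of its stretches lie within 2 mismatches of another keratin, first of all Krt16 and Krt17. Krt16 shared 37.6% of its stretches unchanged with other genes, among them Krt14 and the unnamed gene Gm11597, so its value in tumor 26043, where Krt14 was at 611 FPKM, is uncertain. For Krt8 26.9% of the stretches occur in the pseudogene Krt8-ps, and for Krt18 the share was 0.720%.

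Krt42 and Krt79 were higher in both triple-mutant tumors as well. Krt42, a type I keratin gene of the mouse next to Krt17 (chr11:100262882-100269871), had 16.9 and 9.39 FPKM in the triple-mutant and 0.0692 and 0.569 FPKM in the double-mutant tumors, with a log2 fold change of 3.39 (SE 0.43, limma adjusted p = 0.179). Krt79, a type II keratin of the upper hair follicle and sebaceous duct, had 213 and 18.1 FPKM against 16.4 and 1.70 FPKM (log2 fold change 3.22, SE 1.48, limma adjusted p = 0.551). Tumors 26044 and 26048 were nearly equal in Krt79, and the genotypes overlapped once FPKM were rescaled to the same sum in every tumor. Krt80, a type II keratin of differentiating epithelia, was high in tumor 26043 at 24.4 FPKM and had 1.65 FPKM in tumor 26044 against 2.52 and 1.28 FPKM, so the genotypes overlapped (log2 fold change 1.53, SE 1.14, limma adjusted p = 0.677). Its difference came to -0.10 without tumor 26043. Krt23, a type I keratin, had much the same level in all tumors, 48.7 and 24.1 FPKM against 34.2 and 28.9 FPKM (log2 fold change 0.12, SE 0.42, limma adjusted p = 0.931).

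Keratins of epidermal differentiation and of hair were low in all 4 tumors. Krt10, the type I keratin of suprabasal epidermis, had 3.23 and 2.59 FPKM in the triple-mutant and 3.55 and 1.21 FPKM in the double-mutant tumors (log2 fold change 0.30, SE 0.46, limma adjusted p = 0.840). Its partner Krt1 reached no more than 0.711 FPKM, in tumor 26044. The inner root sheath keratin Krt27 was the third gene below in both triple-mutant tumors, with 0.0310 FPKM in tumor 26043, 0 in tumor 26044 and 1.04 and 1.20 FPKM in the double-mutant tumors (log2 fold change -1.06, SE 0.28, limma adjusted p = 0.442). This is a low level, and it shares 11.1% of its stretches of 50 bases unchanged with its neighbors Krt25 and Krt28. Krt71, also of the inner root sheath, ranged from 0 in tumor 26048 to 4.06 FPKM in tumor 26050, with 1.96 and 1.21 FPKM in the triple-mutant tumors between them (log2 fold change 0.19, SE 0.84, limma adjusted p = 0.947).

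Of the 35 keratins below the filter, 5 were listed at 0 in every tumor, 21 in all stayed under 0.1 FPKM and 14 reached 0.1 FPKM in a tumor. Of these 14, 6 reached 1 FPKM in a single tumor, the wound-induced Krt6b and Krt16, the companion layer keratin Krt75 and 3 more. Krt76, a type II keratin of oral mucosa, had 2.30 FPKM in tumor 26044 and 0.0568 FPKM in tumor 26043 and was listed at 0 in the double-mutant tumors. Krt4, of mucosal suprabasal layers, had 1.09 and 0.287 FPKM against 0.0394 and 0.0969 FPKM, and Krt73, of the inner root sheath, 1.13 and 0.144 FPKM with 0 in both double-mutant tumors. The 8 others were Krt1, Krt78, Krt13, Krt28, Krt83, Krt84, Krt85 and Krt222, none above 0.711 FPKM. None of the 15 hair shaft keratins passed the filter, and 12 of them stayed under 0.1 FPKM. The highest hair shaft value was that of Krt83, 0.682 FPKM in tumor 26043, and the Krt83, Krt81 and Krt86 rows lie inside that of Krt85 (chr15:101431014-101491303), whose values cannot be kept apart from theirs. All 52 Krtap genes were under 1 FPKM in every tumor, with sums of 0 to 0.243 FPKM, and of the hair follicle markers only Padi3, a peptidylarginine deiminase, was well above 1, with 13.3 and 73.9 FPKM in the triple-mutant against 0.172 and 0.139 FPKM in the double-mutant tumors. Dsg4, the desmoglein of the hair shaft, stayed at or near 0 in all 4.

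**Figure D3:**
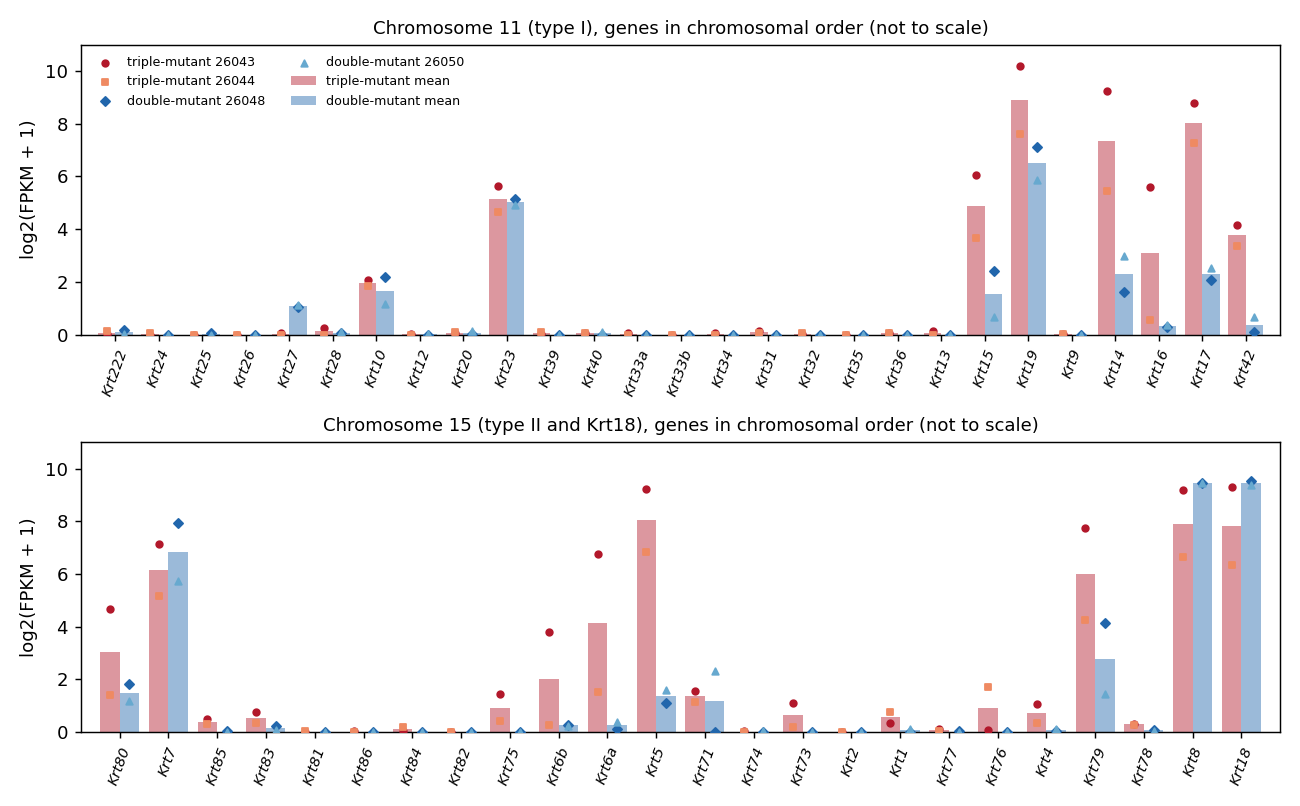
All 51 keratins in their order along the chromosomes, not to scale, with bars for the mean log2(FPKM + 1) of each genotype and points for the 4 tumors. On chromosome 11 tall bars gather from Krt15 to Krt42, with Krt23 and the low Krt10 further left, and on chromosome 15 they stand at both ends and at Krt6a and Krt5 in the middle, while the hair keratins of both clusters are near 0.

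On the chromosomes the members lie in 2 clusters, 27 type I genes on chromosome 11 and all 23 type II genes on chromosome 15, where the type I gene Krt18 sits beside Krt8. Krt15, Krt19, Krt14, Krt16, Krt17 and Krt42 are near neighbors at the end of the chromosome 11 cluster, with only the nearly silent Krt9 among them. Each of these 6 was higher in both triple-mutant tumors, as were 21.3% of all genes tested and 16.5% of all genes without a filter. Krt16 was not tested, and its 0.471 FPKM in tumor 26044 lay little above 0.294 FPKM in tumor 26050. The separation of Krt42 was fixed by the filter, so the 6 are described only. On chromosome 15 the tested genes higher in the triple-mutant tumors were not all neighbors, since Krt5 and Krt6a lie side by side and Krt79 apart from them. The Krt8 and Krt18 pair that was lower lies next to Krt79 and the low Krt78. Without a filter Krt83, Krt84, Krt85, Krt75, Krt73, Krt1, Krt77, Krt76, Krt4 and Krt78 were higher there too, as were 16.5% of all genes. These reached at most 2.30 FPKM. Krt1, Krt77, Krt76, Krt4, Krt79 and Krt78 are neighbors in that order.

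The keratin RNA of a tumor also differed in amount. Summed over the 51 genes it was 4688 and 795 FPKM in the triple-mutant and 1886 and 1521 FPKM in the double-mutant tumors, or 0.679% and 0.0998% against 0.266% and 0.205% of all FPKM. The triple-mutant tumors were the highest and the lowest of the 4, so the mean log2 sums differed by 0.19, which became -1.09 without tumor 26043 and 1.47 without tumor 26044. Each of the 16 keratins was higher in tumor 26043 than in tumor 26044. This held in the same tumors for Epcam and for Cdh1, the gene of E-cadherin, which had 100 FPKM in tumor 26043 and 10.4 FPKM in tumor 26044, against 122 and 69.7 FPKM in the double-mutant tumors. The part of epithelial cell number was not tested.

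Keratins were next set out as shares of a tumor's own keratin RNA. Basal keratins made up 27.2% and 21.2% in the triple-mutant tumors against 0.403% and 0.633% in the double-mutant tumors. Krt17, Krt6a, Krt6b, Krt16 and Krt75 together made up 12.9% and 19.8% against 0.20% and 0.365%. Most of this was Krt17, which alone gave 9.28% and 19.5% against 0.172% and 0.313%. Simple keratins made up 53.2% and 51.2% against 96.3% and 96.4%. Within the simple group Krt19 alone gave 24.6% and 24.4% against 7.38% and 3.73%, while Krt8 gave 12.3% and 12.4% against 37.5% and 46.1%. The lower level of nearly all keratins in tumor 26044 left the shares of Krt5, Krt8, Krt15 and Krt19 close to those of tumor 26043, whereas the share of Krt14 was smaller in tumor 26044 (5.35% against 13.04%) and that of Krt17 larger (19.5% against 9.28%). The gaps were wider for several smaller members. Among those with the larger share in tumor 26043 were Krt6a (2.32% against 0.236% in tumor 26044), Krt16 (1.01% against 0.0593%) and Krt6b (0.275% against 0.0245%). Among those with the smaller share there were Krt42 (0.359% against 1.18%), Krt23 (1.04% against 3.04%), Krt10 (0.0690% against 0.326%) and Krt71 (0.0418% against 0.152%). As shares, 9 of the 16 keratins were higher in both triple-mutant tumors, the 8 above and Krt80, and 3 were lower. These counts have no counterpart over all genes, since the shares are of keratin RNA only. They include Krt6a, Krt42 and Krt27, which reached the filter only in the genotype where they were higher. The shares of a tumor have a fixed sum, so smaller shares of Krt8 and Krt18 leave larger ones for other members.

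**Figure D4:**
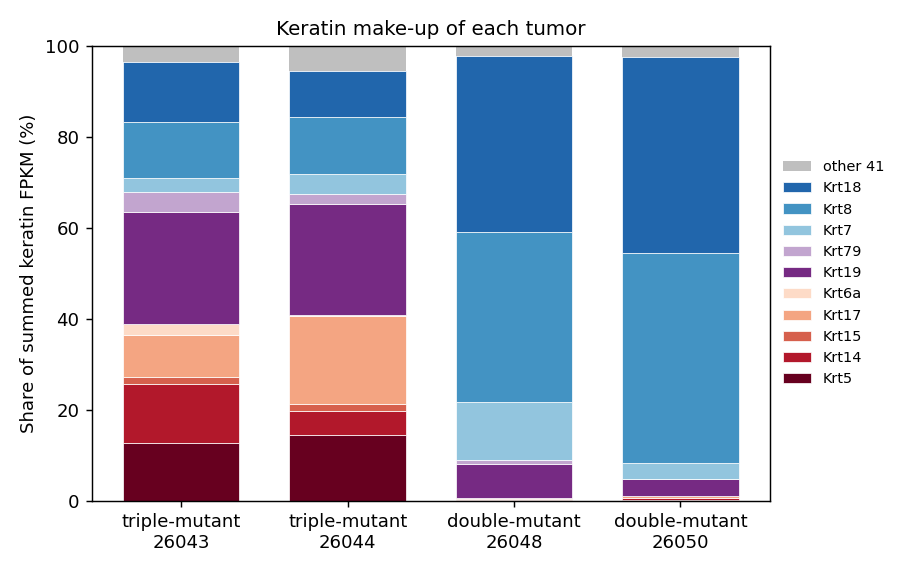
Share of each keratin in the summed keratin FPKM of its tumor, in percent, 1 stacked bar per tumor. In color are the 10 keratins with the highest FPKM in any 1 tumor, and grey holds all others, Krt23 among them. The parts of Krt5, Krt14, Krt17 and Krt19 are visible in both triple-mutant tumors and, but for Krt19, barely so in the double-mutant tumors, where Krt8 and Krt18 fill most of the bar.

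The balance of the families differed as well. Type II keratins summed to 0.559 and 0.528 times type I in the triple-mutant tumors and to 1.06 and 1.01 times type I in the double-mutant tumors, a difference of -0.93 on the log2 scale. With the 4 genes Krt5, Krt8, Krt14 and Krt18 alone the difference was 0.34, of the opposite sign, so the sign rested on the other members. Within pairs, the ratio of Krt8 to Krt18 was 0.927 and 1.22 against 0.971 and 1.07, near 1 in all tumors. The ratio of Krt5 to Krt14 was 0.975 and 2.68 in the triple-mutant and 0.552 and 0.295 in the double-mutant tumors, where both genes were low.

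**Figure D5:**
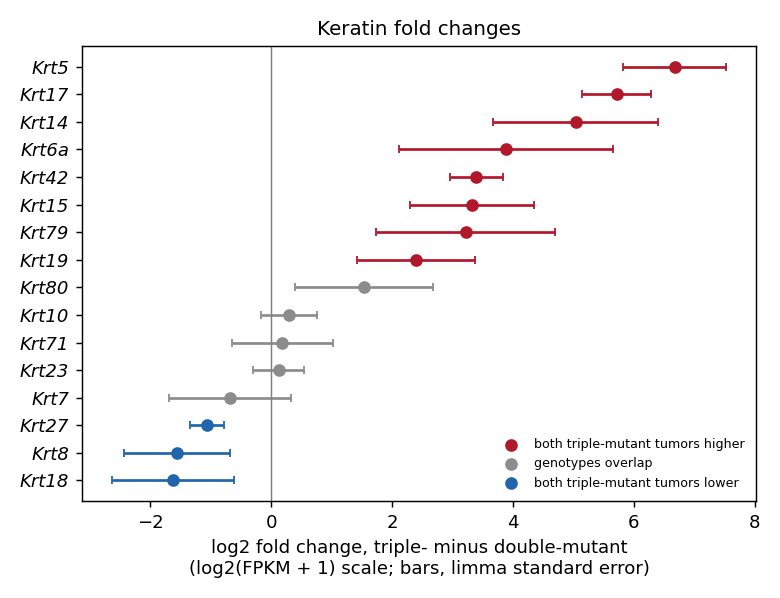
Log2 fold change of the 16 keratins, triple- minus double-mutant on the log2(FPKM + 1) scale, with bars of 1 limma standard error, 2 tumors per genotype. Krt5 at 6.68 and Krt17 at 5.72 stand furthest right, Krt14 and Krt6a have wide bars, and Krt18 at -1.62 is the lowest, while 0 of the genes passed the adjusted threshold.

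The reference promoters of 4 keratins with a usable window are shown, Krt5 and Krt42 from those higher and Krt8 and Krt18 from those lower in both triple-mutant tumors. They are RefSeq windows on GRCm38.p6 of 250 bases before to 50 after the annotated start, whose base is counted as 0, read 5′ to 3′ on the strand of the gene. RefSeq windows were at hand for 34 of the 51 keratins and 11 of the 16, and that of Krt14 was left out because it lies 1480 bases from the end of the row in the tables. The positions are chr15:101712856-101713155 (minus strand) for Krt5, chr11:100269902-100270201 (minus) for Krt42, chr15:102004293-102004592 (minus) for Krt8 and chr15:102027966-102028265 (plus) for Krt18. Capitals mark the matches to the motifs searched.
Krt5: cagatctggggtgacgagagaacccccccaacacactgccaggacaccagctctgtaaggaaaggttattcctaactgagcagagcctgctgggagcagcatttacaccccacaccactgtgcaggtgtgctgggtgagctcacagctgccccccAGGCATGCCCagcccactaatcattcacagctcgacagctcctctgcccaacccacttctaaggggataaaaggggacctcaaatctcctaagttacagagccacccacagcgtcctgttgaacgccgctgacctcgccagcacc
Krt42: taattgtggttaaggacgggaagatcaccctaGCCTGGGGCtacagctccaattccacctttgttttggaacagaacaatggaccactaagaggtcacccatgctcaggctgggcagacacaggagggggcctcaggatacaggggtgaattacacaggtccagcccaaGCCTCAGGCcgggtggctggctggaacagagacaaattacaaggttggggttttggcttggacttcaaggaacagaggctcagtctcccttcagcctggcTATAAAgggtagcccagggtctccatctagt
Krt8: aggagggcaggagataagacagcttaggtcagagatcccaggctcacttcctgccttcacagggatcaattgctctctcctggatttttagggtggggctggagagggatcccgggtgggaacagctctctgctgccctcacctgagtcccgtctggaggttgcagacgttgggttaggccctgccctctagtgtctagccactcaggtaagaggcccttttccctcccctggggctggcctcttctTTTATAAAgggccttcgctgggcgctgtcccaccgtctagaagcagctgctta
Krt18: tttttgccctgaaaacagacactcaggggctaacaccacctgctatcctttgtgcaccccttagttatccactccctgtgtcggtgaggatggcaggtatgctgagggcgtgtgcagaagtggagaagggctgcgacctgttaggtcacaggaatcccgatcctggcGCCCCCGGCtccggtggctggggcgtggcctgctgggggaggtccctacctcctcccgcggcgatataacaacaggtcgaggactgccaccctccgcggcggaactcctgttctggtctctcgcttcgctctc
In Krt5 the capitals are a p53 family half-site at positions -95 to -86, the motif bound by p53 and p63. In Krt42 they are 2 AP-2 motifs (GCCNNNGGC) at -218 to -210 and -81 to -73 and a TATA box (TATAAA) at 19 to 24, in Krt18 1 AP-2 motif at -83 to -75, and in Krt8 overlapping TATA box letters of both strands between -3 and 4. The AP-1 motif (TGANTCA) and the SP/KLF motif (GGGCGG) were searched too, all on both strands. Of 32851 RefSeq promoter windows of the same length, 8.36% hold the p53 family half-site, 16.6% the AP-2, 13.6% the TATA box, 7.81% the AP-1 and 35.7% the SP/KLF motif. Of the 10 windows of tested keratins used, 5 held a TATA box, 3 an AP-2 motif, 1 the p53 family half-site, 1 SP/KLF motifs and 0 an AP-1 motif. Krt79, higher in both triple-mutant tumors, and Krt27, lower in both, had usable windows too and are not shown. The Krt79 window held no match to any motif searched, and that of Krt27 held a TATA box at -15 to -10. These are matches of letters in a reference window and no measurement of binding.

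Genes whose proteins anchor or bind keratin filaments were read beside the keratins, and all 15 listed were tested. Of these, 5 were higher and 1 lower in both triple-mutant tumors, against 21.3% and 22.9% of all genes tested. Their median log2 fold change was 0.60, beside -0.02 over all genes and 1.97 over the 16 keratins, and 0 of the 15 passed the adjusted limma threshold or an unadjusted p of 0.05. Dsp, the gene of desmoplakin, which ties keratin filaments to desmosomes, had 46.9 and 29.1 FPKM in the triple-mutant and 28.9 and 12.9 FPKM in the double-mutant tumors (log2 fold change 0.90, SE 0.50, limma adjusted p = 0.598). Tumors 26044 and 26048 were nearly equal in it. Pkp3, the gene of the desmosomal plakophilin 3, had 86.5 and 66.0 FPKM against 49.5 and 35.9 FPKM (log2 fold change 0.83, SE 0.32, limma adjusted p = 0.513). Dst, whose epithelial form links keratin to hemidesmosomes, had 4.30 and 7.41 FPKM against 10.1 and 14.8 FPKM (log2 fold change -0.99, SE 0.40, limma adjusted p = 0.529).

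Among 18 intermediate filament genes outside the keratins 9 were tested, of which 4 were higher and 2 lower in both triple-mutant tumors, beside the same 21.3% and 22.9% of all genes. Their median log2 fold change was 0.50, and 0 passed the adjusted limma threshold, with 1 at an unadjusted p of 0.05. Iffo2, an orphan member of the family, had 24.04 and 9.77 FPKM in the triple-mutant and 5.13 and 7.26 FPKM in the double-mutant tumors (log2 fold change 1.21, SE 0.51, limma adjusted p = 0.535). The muscle filament gene Des was lower at 2.49 and 3.75 FPKM against 6.85 and 7.71 FPKM (log2 fold change -1.02, SE 0.34, limma adjusted p = 0.485). The lamin gene Lmnb1 was lower by a small margin, 48.7 and 51.5 FPKM against 67.9 and 53.1 FPKM (log2 fold change -0.26, SE 0.28, limma adjusted p = 0.772). Vim, the vimentin gene of mesenchymal cells, was highest in tumor 26044 at 704 FPKM, against 324, 372 and 254 FPKM in tumors 26043, 26048 and 26050. This was the tumor with the least keratin RNA.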

How the data were processed

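PolyA RNA of 4 mammary tumors was sequenced by the authors as strand-specific libraries with 50-bp single-end reads. Per the submitters' processing notes, reads were aligned to mm10 with TopHat2 2.0.10 and Bowtie 0.12.9, and the deposited FPKM of each gene, with a confidence interval in the same unit, were estimated by the authors with Cufflinks 2.1.1. The gene annotation is not given in the sources used here, and read counts tested by the authors with DESeq2 were not analysed here. FPKM hold no read total, and the sequencing depth is therefore unknown. The deposited value lay above its own Cufflinks interval in 32 and below it in 4 of the 56 values of at least 1 FPKM among the 16 tested keratins, so the intervals were not used as errors. All 204 keratin entries had the status OK.

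The 4 tables were joined on symbol and position (starts plus 1). Genes that reached 1 FPKM in 2 or more tumors were fitted on log2(FPKM + 1), which understates the change of low genes, with limma 3.58.1 in R 4.3.3 (lmFit, eBayes with trend), triple- minus double-mutant, with Benjamini-Hochberg adjustment over all 12752 genes and a threshold of 0.05. The fit was tested on simulated data. Tumor numbers and genotypes come from the labels, which do not say more about how tumors relate, so p-values measure the spread between these samples. Stretches of 50 bases were compared on GENCODE M21 transcripts, and promoters come from RefSeq. Tables and plots were made with pandas 2.3.3 and matplotlib 3.10.9 in Python 3.11.15.

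Every keratin above the filter was named, those below it where they reached 0.1 FPKM, and of the partner lists the 3 with the largest change each way among those whose genotypes did not overlap. The members and lists were chosen with earlier results of these data known. Alternatives were to add 0.1 in place of 1, to drop the filter or raise it to 5 FPKM, FPKM rescaled to a common sum (TPM), quantile normalization, limma without trend, small RNA genes left out, the interval midpoint, each tumor left out, and other gene sets for the sums and ratios. Shares of summed keratin FPKM were added after seeing the data.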

Additional observations from a re-analysis of the deposited data

How the results depend on the processing

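No keratin and no listed partner passed the adjusted threshold under any of the 12 alternative fits run, and the smallest adjusted p of a keratin over them was 0.0987, for Krt5, whose adjusted p ranged up to 0.976. A tumor left alone in its genotype was assumed to vary like the other genotype. Of 180 alternative log2 fold changes of keratins, 173 kept their direction and 7 turned, all 7 with a tumor left out: Krt23 (-0.37), Krt71 (-0.03) and Krt80 (-0.10) without tumor 26043, Krt7 without tumor 26044 (0.31) and without tumor 26048 (0.40), Krt71 without tumor 26048 (-0.98) and Krt10 without tumor 26050 (-0.22). With a tumor left out, these 5 genes ranged from -0.37 to 0.62 (Krt23), -0.98 to 1.35 (Krt71), -0.10 to 3.17 (Krt80), -1.77 to 0.40 (Krt7) and -0.22 to 0.82 (Krt10). In each fit that left out 1 triple-mutant tumor, Krt6a and Krt42 no longer reached the filter, nor did Krt27 in each fit that left out 1 double-mutant tumor.

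The count of keratins higher in both triple-mutant tumors was 24 of 51 without a filter in place of 8, most of the added ones at under 1 FPKM (16.5% of all genes then), and lay between 6 and 10 with a tumor left out, where 31.1% to 39.3% of all genes were higher. The count lower in both was 1 with the interval midpoint in place of 3, since Krt18 then overlapped and Krt27 no longer reached the filter, and 3 to 5 with a tumor left out, the 5 without tumor 26043, where Krt7 and Krt23 joined and 45.9% of all genes were lower, so that 5 of 14 keratins is no excess. Rescaling to TPM gave 7 higher and 2 lower (19.6% and 21.4% of all genes), with Krt79 and Krt18 overlapping, and no scaling moved the median of all genes by over 0.1 log2 units. The log2 ratio of summed keratin turned from 0.19 to -1.09 without tumor 26043 and ranged from -1.09 to 1.47. The basal to simple difference was 6.45 with the whole lists, and 7.14 to 8.71 with a tumor left out. The type II to type I difference was -0.69 with the interval midpoint, a shift whose cause was not tested, and 0.34 with the 4 genes only, and -0.97 to -0.88 with a tumor left out. No paired analysis was possible because the labels give the tumors of the genotypes different numbers and the sources used here do not say which were littermates. With 2 tumors per genotype the spread between tumors is poorly known, and with unknown depth no counting error can be given.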
